A study of Mus musculus with 12 samples.

Results

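The 10 genes described here, Ripk1, Ripk3, Mlkl, Zbp1, Casp1, Casp4, Casp8, Nlrp3, Pycard and Gsdmd, encode the sensors, adaptors and executioners of necroptosis and pyroptosis. They were taken by symbol from the raw count and FPKM matrices of mouse kidney RNA-seq libraries, keeping for each symbol the transcript with the highest total count, and all 10 were found among 24421 symbols. The 12 libraries fell into 4 groups of 3: WT baseline, Tet2-/- baseline, WT IR and Tet2-/- IR. Mice were male and 6 weeks old, on a C57BL/6 background by the labels and C57BL/6J by the study's methods. The Tet2-/- animals came from heterozygous breeders, so the genotype was not restricted to a tissue and blood cells shared it. IR (ischemia-reperfusion) stood for 60 min of clamping of the right renal pedicle followed by 24 h of reperfusion with the left kidney removed. Baseline mice had no operation, so every difference between IR and baseline below includes anesthesia, surgery and loss of the other kidney.

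Necroptosis and pyroptosis are lytic forms of programmed cell death. In necroptosis, death receptors, Toll-like receptors or the nucleic acid sensor ZBP1 act on the kinases RIPK1 and RIPK3, and RIPK3 phosphorylates MLKL, which then ruptures the plasma membrane; caspase-8 cleaves the kinases and holds the pathway back. In pyroptosis, an inflammasome such as NLRP3 with the adaptor ASC (the product of Pycard) activates caspase-1, or lipopolysaccharide activates caspase-11 (the product of Casp4 in the mouse), and these caspases cut gasdermin D, whose free end forms pores. Both pathways are regulated mainly at the protein level, by cleavage, phosphorylation and assembly, none of which RNA-seq measures. In renal IR, necroptosis has been studied mostly in proximal tubule cells, whereas inflammasome genes are expressed mostly by myeloid cells.

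Total counts were between 51007366 and 107969888 per library, with 1 transcript kept per symbol. Tet2 itself had 7.58 ± 1.47 FPKM in WT baseline and 12.1 ± 4.0 FPKM in Tet2-/- baseline libraries (SD, n = 3), so its transcript was not lower in the baseline libraries labelled Tet2-/-, and after IR it had 5.72 ± 3.13 and 2.53 ± 0.723 FPKM. The sources used here do not say which exons the deletion removes, so a value over the whole transcript may not check the genotype, and Tet2-/- below means the libraries labelled so. Proximal tubule markers defined the tissue: Slc34a1, the phosphate transporter of that segment, had 1463 ± 86.2 FPKM in WT baseline. Tet2-/- IR replicate 2 stood apart in leukocyte markers. It was the highest library of its group for 29 of 37 macrophage, neutrophil and lymphocyte markers, against 7979 of 16186 genes tested (49.3%), and Lyz2, a macrophage lysozyme, had 120 FPKM in it and 13.1 and 5.36 FPKM in replicates 1 and 3. Tet2-/- IR replicate 3 had the highest sum of adipocyte markers, 601 FPKM against 15.1 to 114 FPKM in the other 5 IR libraries. In whole kidney, fewer cells of a type and less RNA per cell cannot be told apart. Without TMM scaling the median log2 fold change of all genes in Tet2-/- IR against Tet2-/- baseline moved from 0.04 to 0.27, and the share of calls that were higher from 52.3% to 67.2%. The same change moved the interaction median from 0.10 to 0.24 and its share of higher calls from 41.3% to 61.7%, and the Tet2-/- against WT median after IR from 0.04 to 0.14.

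At baseline the members spanned a wide range of levels, and the order was nearly the same in both genotypes. FPKM is per length, so levels of different genes can be set side by side. In WT baseline Casp8 was highest with 10.5 ± 1.43 FPKM, followed by Ripk1 (6.04 ± 0.806), Pycard (3.20 ± 0.344) and Gsdmd (2.16 ± 0.437 FPKM, SD, n = 3), and the ranges of these 4 did not overlap. Casp4 (0.80 ± 0.152 FPKM) and Ripk3 (0.566 ± 0.114 FPKM) overlapped with each other. Casp1 (0.288 ± 0.107 FPKM), Mlkl (0.271 ± 0.0449 FPKM) and Zbp1 (0.234 ± 0.0745 FPKM) could not be ordered, and Nlrp3 was lowest with 0.0570 ± 0.0314 FPKM. Counts behind these values ranged from 14 to 32.5 per library for Nlrp3 and from 2148 to 2982 for Casp8, so small differences in Nlrp3 were not detectable at this depth. In Tet2-/- IR the order was different: Casp8 had 24.4 ± 2.38 FPKM and Mlkl, among the lowest in WT baseline, came next with 14.4 ± 3.8 FPKM, above the range of Ripk1 (8.17 ± 0.535 FPKM). Ripk1 overlapped there with Pycard, Pycard with Ripk3, Ripk3 with Gsdmd and Gsdmd with Casp4.

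**Figure D1:**
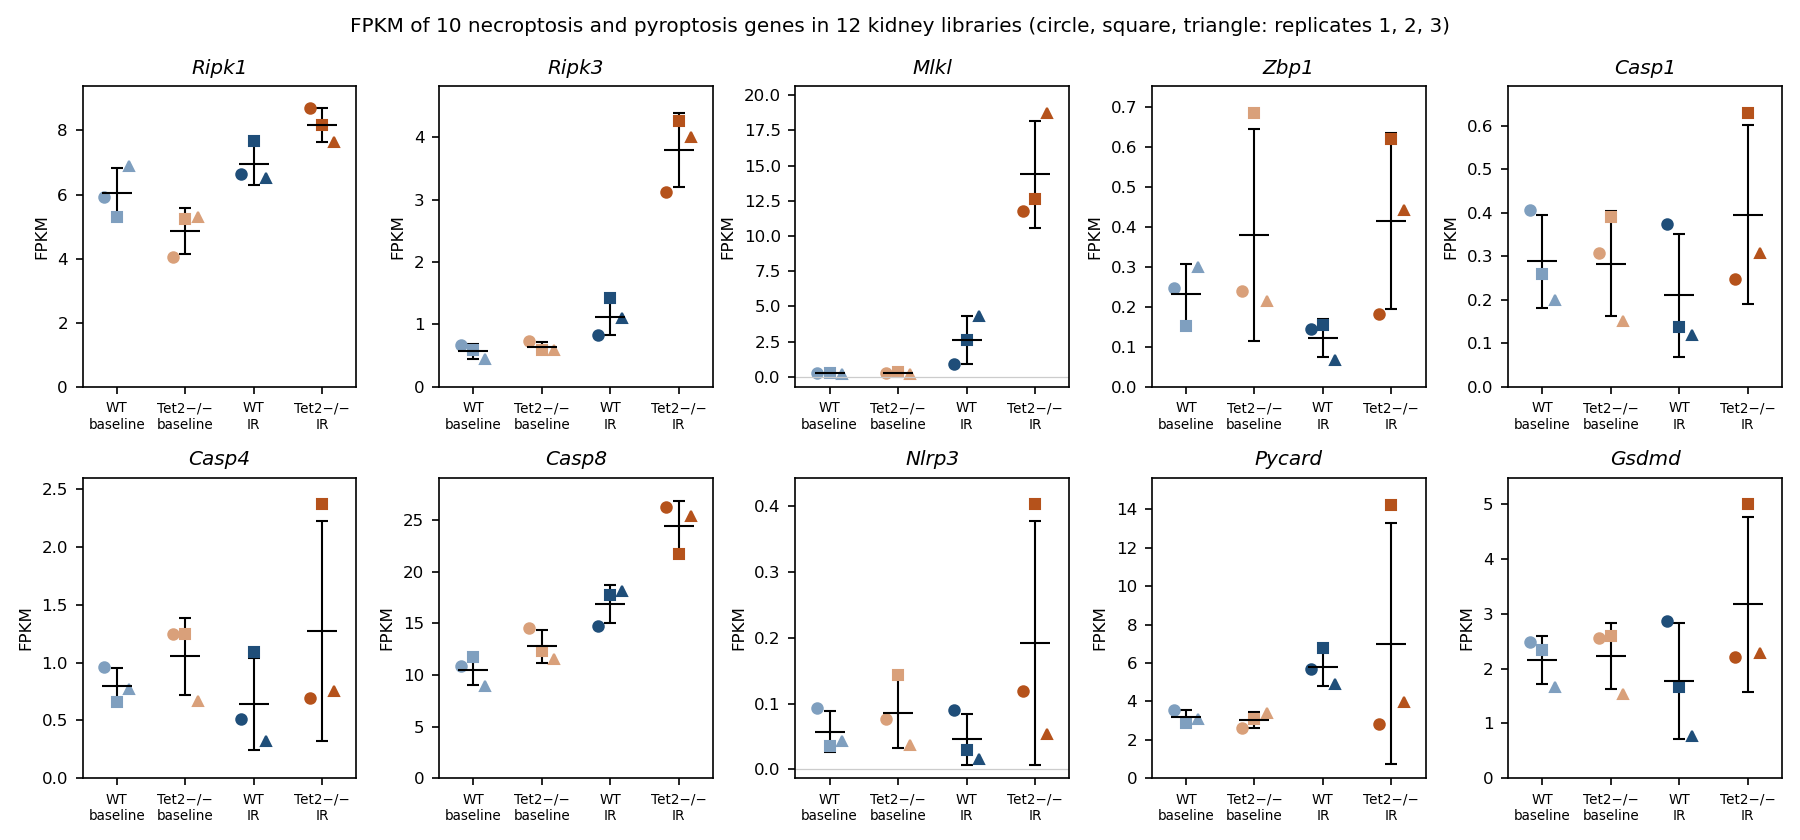
FPKM (vertical axes, each with its own scale) of the 10 members in the 4 groups, with circle, square and triangle for replicates 1, 2 and 3 and horizontal and vertical bars for the mean and SD of 3 libraries. Mlkl and Ripk3 in the 3 Tet2-/- IR libraries sit above all other libraries, and Tet2-/- IR replicate 2 is the highest library for Pycard (14.2 FPKM), Nlrp3, Casp4, Casp1 and Gsdmd.

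The RNA levels of Ripk3, Mlkl, Casp8 and Ripk1 rose together after IR in Tet2-/- kidneys, and their promoters are shown for that reason, beside that of Casp4, a member with NF-kB motif matches that did not pass the test. The sequences are RefSeq starts on GRCm38.p6, 250 bases before to 50 after the start, and the counts below used mm9. RefSeq promoters were found for 8 of the 10 members, 11 promoters in all, and Zbp1 and Gsdmd had no entry. Capitals mark matches on either strand to an interferon-stimulated response element core (GAAA, any 2 bases, GAAA), an NF-kB site (GGG, any 2 bases, TTTCC), a STAT site named GAS (TTCNNNGAA), an AP-1 site (TGANTCA) or a GC box (GGGCGG).
Ripk3 promoter (chr14:55788808-55789107, minus strand): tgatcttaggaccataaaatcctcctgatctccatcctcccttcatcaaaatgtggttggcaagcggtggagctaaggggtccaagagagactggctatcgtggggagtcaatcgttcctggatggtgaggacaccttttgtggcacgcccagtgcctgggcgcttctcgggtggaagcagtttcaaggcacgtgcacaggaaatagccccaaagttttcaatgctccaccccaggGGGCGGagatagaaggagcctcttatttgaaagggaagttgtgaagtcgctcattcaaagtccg
Mlkl promoter (chr8:111338156-111338455, minus strand): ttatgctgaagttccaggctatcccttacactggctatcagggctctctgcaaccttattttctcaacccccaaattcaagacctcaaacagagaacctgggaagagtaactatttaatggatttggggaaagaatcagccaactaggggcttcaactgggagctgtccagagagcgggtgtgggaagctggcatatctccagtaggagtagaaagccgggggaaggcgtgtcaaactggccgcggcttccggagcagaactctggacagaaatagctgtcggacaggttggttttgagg
Casp8 promoter (chr1:58802252-58802551, plus strand): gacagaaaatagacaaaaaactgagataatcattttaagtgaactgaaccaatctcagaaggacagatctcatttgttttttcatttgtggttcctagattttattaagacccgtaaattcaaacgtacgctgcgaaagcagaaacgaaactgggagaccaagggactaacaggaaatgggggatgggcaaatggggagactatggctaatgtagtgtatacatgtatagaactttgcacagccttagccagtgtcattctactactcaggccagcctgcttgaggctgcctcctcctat
Ripk1 promoter 1 (chr13:34002113-34002412, plus strand): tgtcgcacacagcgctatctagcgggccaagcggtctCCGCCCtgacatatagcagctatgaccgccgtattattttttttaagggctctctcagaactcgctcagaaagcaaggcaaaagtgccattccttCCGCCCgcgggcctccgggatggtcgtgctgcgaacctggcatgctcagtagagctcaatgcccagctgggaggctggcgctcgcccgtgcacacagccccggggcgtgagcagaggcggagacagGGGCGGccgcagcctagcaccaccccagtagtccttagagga
Ripk1 promoter 2 (chr13:34002624-34002923, plus strand): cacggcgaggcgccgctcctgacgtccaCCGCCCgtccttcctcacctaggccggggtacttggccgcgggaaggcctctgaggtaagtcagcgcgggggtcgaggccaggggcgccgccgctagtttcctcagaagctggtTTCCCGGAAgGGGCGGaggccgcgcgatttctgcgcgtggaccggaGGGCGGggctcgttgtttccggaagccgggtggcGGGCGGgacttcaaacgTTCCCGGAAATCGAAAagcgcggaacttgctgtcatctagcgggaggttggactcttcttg
Casp4 promoter 1 (chr9:5308599-5308898, plus strand): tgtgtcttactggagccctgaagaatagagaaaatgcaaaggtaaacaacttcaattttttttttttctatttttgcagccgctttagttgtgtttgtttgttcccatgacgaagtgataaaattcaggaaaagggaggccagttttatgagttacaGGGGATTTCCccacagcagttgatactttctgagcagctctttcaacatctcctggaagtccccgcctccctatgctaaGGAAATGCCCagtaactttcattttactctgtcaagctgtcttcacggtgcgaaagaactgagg
Of 32851 promoters of this length, 3.4% held the interferon element core, 1.6% the NF-kB site, 8.3% the GAS site, 7.8% the AP-1 site and 35.7% the GC box. The Mlkl and Casp8 promoters held none of the 5 motifs, and neither did those of Casp1 and Nlrp3. Promoters were taken by symbol and were not matched to the transcript counted. Casp8 transcripts start at 58852218, the one counted, or at 58859346 in mm9, and the Casp8 promoter shown may belong to another transcript than the one counted. The Ripk3 promoter held 1 GC box, 14 bases before the start, and the Pycard promoter held 1 as well. The second Ripk1 promoter held the interferon element core at position -5, overlapping a GAS site at position -11, besides another GAS site at position -108 and 4 GC boxes. The Casp4 promoter held NF-kB sites at positions -93 and -14, and the other Casp4 promoter, which overlaps it, held the same sites. A match is a run of letters and says nothing of binding, and no motif of the 5 was shared by the promoters of all 4 members that rose.

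Ripk3 and Mlkl, the kinase and the executioner of necroptosis, had the highest log2 fold changes after IR in both genotypes. In WT kidneys Ripk3 did not pass the test (adjusted p = 0.14 from edgeR). After IR both genes reached higher levels in Tet2-/- than in WT kidneys. Mlkl (NM_001310613, mm9 chr8:113835698-113862105, minus strand) had 0.303, 0.291 and 0.220 FPKM in WT baseline replicates 1, 2 and 3. It had 0.271, 0.372 and 0.229 FPKM in Tet2-/- baseline, 0.928, 2.6 and 4.32 FPKM in WT IR, and 11.8, 12.6 and 18.7 FPKM in Tet2-/- IR. Both baseline groups overlapped, every WT IR library was above every baseline library, and every Tet2-/- IR library was above every WT IR library. Ripk3 (NM_001164108, chr14:56403832-56407694, minus strand) had 0.663, 0.595 and 0.440 FPKM in WT baseline and 0.728, 0.583 and 0.587 FPKM in Tet2-/- baseline. It had 0.836, 1.42 and 1.11 FPKM in WT IR and 3.12, 4.26 and 4.0 FPKM in Tet2-/- IR. The order of the groups was the same as for Mlkl, with a narrower range. The transcripts of these genes share nearly all reads in the counts: Ripk3 had 3 transcript rows and Mlkl 2, with means in Tet2-/- IR of 3.8, 3.89 and 3.88 FPKM and of 14.4 and 14.3 FPKM, so no isoform could be told from another.

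The first comparison asked what IR did in WT kidneys. Mlkl rose, by 3.23 on the log2 scale (standard error, SE, 0.59; adjusted p = 0.0386 from edgeR), a 9.4-fold difference. It was the only member called of 10 tested, where called means past an adjusted p of 0.05 and more than 1 log2 unit from 0, and 1.46% of 16015 genes were called higher. The call depended on single libraries. It was kept without WT IR replicate 1 (log2 fold change 3.65, adjusted p = 0.0107), and with any other of the 6 libraries left out the adjusted p was between 0.0768 and 0.136 with log2 fold changes of 2.58 to 3.32. Within WT IR, Mlkl ranged 4.66-fold between libraries, and the tubular injury markers Havcr1 (Kim1) and Lcn2 (Ngal) summed to 288, 1035 and 829 FPKM in replicates 1, 2 and 3, lowest in the library in which Mlkl was lowest, while Mlkl was highest in replicate 3 and the injury sum in replicate 2, and a link between them was not tested. Against WT baseline, cell type markers moved too. The proximal tubule sum went from between 4622 and 5396 FPKM to between 2741 and 3656 FPKM, the neutrophil sum from between 0.679 and 2.51 FPKM to between 4.14 and 9.52 FPKM and the lymphocyte and NK cell sum from between 3.28 and 3.68 FPKM to between 0.658 and 1.77 FPKM, all without overlap. Of 13 macrophage markers, Cd68 and Cd14 were called higher and none lower, while most of the others had log2 fold changes below 0. The macrophage sum overlapped, with 47.4 to 71.7 FPKM in WT baseline and 37.3 to 80.6 FPKM in WT IR. The part of these cell types in the change of Mlkl was not tested. On log2(FPKM + 1) with limma the call was lost (log2 fold change 1.39, adjusted p = 0.0756).

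In WT kidneys 4 members, Mlkl, Ripk3, Casp8 and Pycard, had IR libraries that were all above the baseline libraries, against 18.9% of all genes. Ripk3 had a log2 fold change of 0.93 (SE 0.30, adjusted p = 0.14), Casp8 of 0.63 (SE 0.16, adjusted p = 0.0799) and Pycard of 0.79 (SE 0.17, adjusted p = 0.0585), none of which passed the test in edgeR. In DESeq2 the adjusted p was 0.0372 for Ripk3, 0.0171 for Casp8 and 0.000707 for Pycard, all under the limit of fold, and that of Casp8 was 0.0412 in 1 edgeR fit of all 12 libraries. With the replicate number as a block in edgeR, Pycard had an adjusted p of 0.0473 at the same log2 fold change, under the limit of fold. That pairing was taken from correlations in these same libraries and not from the labels, so the smaller p is no independent support. Pycard (NM_023258, chr7:135134887-135137381, minus strand), the inflammasome adaptor, had 3.57, 2.90 and 3.11 FPKM in WT baseline and 5.67, 6.80 and 4.89 FPKM in WT IR, with a gap between the groups. Zbp1, the upstream sensor, had a log2 fold change of -1.04 (SE 0.44, adjusted p = 0.223), and Casp1, Casp4, Gsdmd and Nlrp3 had log2 fold changes of -0.54, -0.41, -0.38 and -0.43 with overlapping groups. The median over the 10 members was -0.12, against -0.026 over all genes.

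In Tet2-/- kidneys the necroptosis kinases and Mlkl rose after IR, while the pyroptosis genes did not pass the test. Mlkl rose by 5.36 on the log2 scale (SE 0.32, adjusted p = 7.6e-05 from edgeR), a 41.2-fold difference, and Ripk3 by 2.33 (SE 0.23, adjusted p = 0.000392), a 5.03-fold difference. Both were called in all 6 fits with 1 library left out. They were 2 of 10 members called, both higher, in a comparison in which 12.7% of 16359 genes were called higher. Cell type markers moved in the same comparison. The 12 neutrophil markers summed to 1.91 to 3.19 FPKM in Tet2-/- baseline and 75.6 to 134 FPKM in Tet2-/- IR, with at most 3 of the 12 at 0 in a library. Only 4 of the 12 passed the filter on low counts in every comparison, and 3 of these were called higher, among them S100a8, with a log2 fold change of 5.61. The proximal tubule sum went from between 4735 and 5572 FPKM to between 947 and 1664 FPKM, with 7 of 10 markers called lower, and all 4 podocyte markers were called higher. Of 13 macrophage markers, Cd14, Itgam and Cd68 were called higher (log2 fold changes 4.56, 3.5 and 3.46) and Csf1r lower (-2.69), and their sum overlapped, with 42.8 to 86.4 FPKM in Tet2-/- baseline and 69.5 to 256 FPKM in Tet2-/- IR. The part of these cell types in the changes of Ripk3 and Mlkl was not tested. Casp8 (NM_009812, chr1:58852218-58904347, plus strand), the brake on necroptosis and an initiator of apoptosis, rose with a log2 fold change of 0.69 (SE 0.15, adjusted p = 0.00891). Its 3 Tet2-/- IR libraries had 26.2, 21.7 and 25.3 FPKM and its Tet2-/- baseline libraries 14.6, 12.3 and 11.5 FPKM, without overlap.

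Ripk1 (NM_009068, chr13:34094743-34127039, plus strand), which carries both survival and death signals from the tumor necrosis factor receptor, rose less, with a log2 fold change of 0.49 (SE 0.15, adjusted p = 0.0302). It had 4.04, 5.22 and 5.31 FPKM in Tet2-/- baseline and 8.71, 8.18 and 7.64 FPKM in Tet2-/- IR. Both passed the adjusted p and not the limit of fold, so 4 of 10 members passed the adjusted p alone, against 22.9% of all genes that were higher by it. The same 4 were the members whose groups did not overlap, against 40.5% of all genes. With 1 library left out, the adjusted p was between 0.0383 and 0.0916 for Ripk1 and between 0.00471 and 0.0452 for Casp8.

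The 5 pyroptosis genes varied between the Tet2-/- IR libraries, with coefficients of variation of 50.2% (Gsdmd) to 96.7% (Nlrp3), and each was highest in replicate 2. That of Zbp1 was 53.2%, and those of Mlkl, Ripk3, Ripk1 and Casp8 were 26.4% or lower. Pycard had 2.85, 14.2 and 3.96 FPKM in Tet2-/- IR, and 2.62, 3.10 and 3.41 FPKM in Tet2-/- baseline. Its log2 fold change was 0.90 (SE 0.52, adjusted p = 0.203) and was -0.03 without Tet2-/- IR replicate 2. Nlrp3 (NM_145827, chr11:59356188-59380458, plus strand), the inflammasome sensor, had 0.119, 0.403 and 0.0540 FPKM in Tet2-/- IR and 0.0770, 0.143 and 0.0370 FPKM in Tet2-/- baseline. Its log2 fold change was 0.85 (SE 0.75, adjusted p = 0.389) and was -0.20 without that library. The groups overlapped for both genes.

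Casp4 (NM_007609, chr9:5308849-5336791, plus strand), which encodes caspase-11, had 0.696, 2.37 and 0.750 FPKM in Tet2-/- IR, against 1.24, 1.25 and 0.664 FPKM in Tet2-/- baseline. Casp1 (NM_009807, chr9:5298517-5307281, plus strand), whose product also matures interleukin-1 beta, had 0.249, 0.631 and 0.307 FPKM, against 0.307, 0.391 and 0.152 FPKM. Gsdmd (NM_026960, chr15:75692769-75697834, plus strand), the pore former, had 2.22, 5.01 and 2.28 FPKM, against 2.56, 2.59 and 1.53 FPKM. In each of the 3 the second replicate was the highest IR library and the other 2 lay among the baseline values. Their log2 fold changes were -0.02, 0.21 and 0.23 with standard errors of 0.50, 0.48 and 0.35, all smaller than the spread between replicates, and that of Casp4 was above 0 under 8 of the alternatives.

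Zbp1 (NM_021394, chr2:173032114-173044423, minus strand) had 0.182, 0.621 and 0.442 FPKM in Tet2-/- IR and 0.240, 0.687 and 0.215 FPKM in Tet2-/- baseline, a log2 fold change of -0.16 (SE 0.59, adjusted p = 0.844). The groups overlapped, and replicate 2 was the highest library in each of them. The median log2 fold change over the 10 members was 0.59, against 0.043 over all genes.

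Replicate 2 of Tet2-/- IR was the highest of its group for 7 of the 10 members, against 49.3% of all genes tested. It exceeded the mean of the other 2 libraries 4.66-fold for Nlrp3, 4.18-fold for Pycard, 3.28-fold for Casp4, 2.27-fold for Casp1, 2.22-fold for Gsdmd, 1.99-fold for Zbp1 and 1.20-fold for Ripk3. It was not the highest for Mlkl, Casp8 or Ripk1, where the ratios were 0.827, 0.843 and 1.0. The sum of 13 macrophage markers was 256 FPKM in that library and 116 and 69.5 FPKM in replicates 1 and 3, with none of the 13 at 0, and the part of these markers in the result was not tested. The 12 neutrophil markers summed to 134, 126 and 75.6 FPKM in replicates 1, 2 and 3. S100a8 (46.6 FPKM) and S100a9 (59.2 FPKM) made up most of the sum in replicate 2. By gene, Csf3r, Cxcr2, Ltf, Camp and Mpo were highest in replicate 2, and S100a8, S100a9, Ly6g, Elane, Retnlg, Ngp and Mmp8 were not. The part of neutrophils in the result was not tested.

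**Figure D2:**
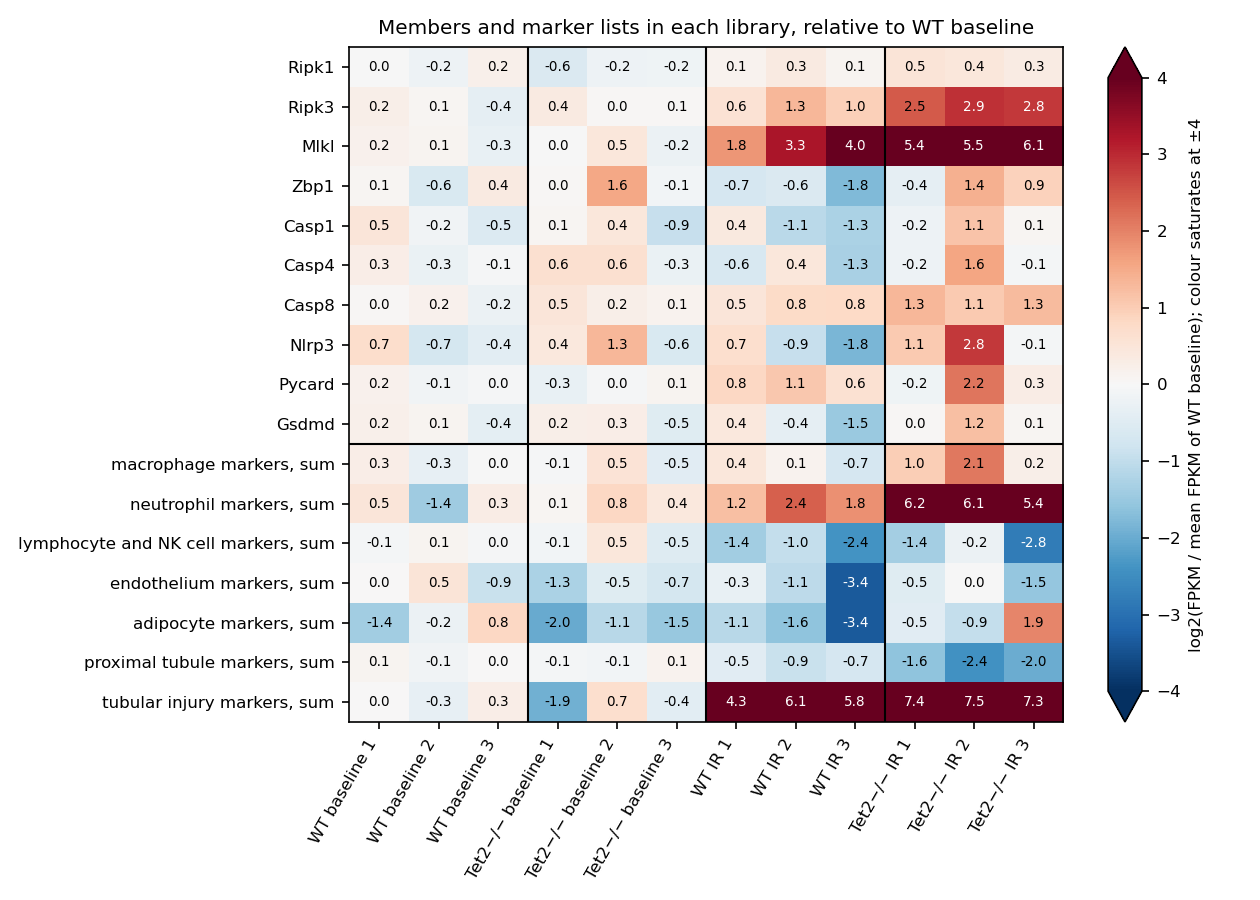
Log2 ratio of FPKM to the WT baseline mean for the 10 members (upper rows) and for summed marker lists (lower rows) in each of the 12 libraries (columns), with the value printed in each cell and colour from blue (lower) to red (higher). Mlkl is 5.4 to 6.1 in Tet2-/- IR and 1.8 to 4.0 in WT IR, and the macrophage sum is 2.1 in Tet2-/- IR replicate 2.

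At baseline, the question was whether the genotype alone changed these genes. None of the 10 members was called by edgeR, in a comparison in which 0.0124% of 16086 genes were called higher, 1 had an unadjusted p under 0.05, and DESeq2 and limma also called none. That member was Casp8, with 10.9, 11.7 and 8.91 FPKM in WT baseline and 14.6, 12.3 and 11.5 FPKM in Tet2-/- baseline (log2 fold change 0.37, standard error 0.14, adjusted p = 0.372), and the groups overlapped. No member had baseline groups without overlap in the higher direction, against 3.06% of all genes. Zbp1 and Nlrp3 had the largest differences, 0.80 and 0.72 on the log2 scale with standard errors of 0.51 and 0.57. Ripk3 and Mlkl differed by 0.25 (SE 0.25) and 0.19 (SE 0.30). A p that misses the threshold does not show that the genotypes had equal levels.

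After IR, Tet2-/- kidneys had more Ripk3 and Mlkl RNA than WT kidneys. Ripk3 was higher by 1.66 on the log2 scale (SE 0.27, adjusted p = 0.0188 from edgeR), a 3.15-fold difference, and Mlkl by 2.34 (SE 0.56, adjusted p = 0.0458), a 5.05-fold difference. These were 2 of 10 members called, both higher, while 2.3% of 16186 genes were called higher and 3.85% lower. The direction was the same with any library left out, but the calls were not. Mlkl kept its call without WT IR replicate 3 (adjusted p = 0.0444) and had adjusted p-values between 0.0648 and 0.107 without any other. Ripk3 lost its call without WT IR replicate 1 (adjusted p = 0.0595), WT IR replicate 3 (0.056) or Tet2-/- IR replicate 2 (0.0505).

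Zbp1 and Casp8 also had Tet2-/- IR libraries that were all above the WT IR libraries, which makes 4 of 10 against 22% of all genes. Zbp1 had 0.146, 0.155 and 0.0680 FPKM in WT IR, so its lowest Tet2-/- IR library (0.182 FPKM) was just above, and its counts in WT IR were only 10.5 to 26.5. Its log2 fold change was 1.69 (SE 0.55), which did not pass in edgeR (adjusted p = 0.0951) and did in DESeq2 (adjusted p = 0.0322). Casp8 had 14.7, 17.8 and 18.1 FPKM in WT IR, and a log2 fold change of 0.44 (SE 0.17, adjusted p = 0.152).

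The pyroptosis genes had positive log2 fold changes in Tet2-/- against WT IR, none beyond the spread between replicates. Nlrp3 had 0.0900, 0.0300 and 0.0160 FPKM in WT IR, from 5 to 25 counts, and a log2 fold change of 1.98 (SE 0.87, adjusted p = 0.186) that was 0.92 without Tet2-/- IR replicate 2. Casp4 had 0.513, 1.09 and 0.325 FPKM in WT IR and a log2 fold change of 0.88 (SE 0.60). Casp1 had 0.374, 0.138 and 0.119 FPKM and a log2 fold change of 0.82 (SE 0.57). These ranges overlapped with those of Tet2-/- IR. Gsdmd had 2.87, 1.67 and 0.765 FPKM in WT IR and a log2 fold change of 0.75 (SE 0.49). Pycard had 0.14 (SE 0.53), and it was -0.80 without Tet2-/- IR replicate 2. Ripk1, with 6.65, 7.69 and 6.52 FPKM in WT IR, had 0.14 (SE 0.11). The median over the 10 members was 0.85, against 0.041 over all genes. All 10 values were above 0, a count for which the share of all genes is not given here. Without Tet2-/- IR replicate 2 only Pycard was below 0, while Casp4 was 0.16 and Casp1 0.40.

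Cell type markers moved with the genotype after IR. The 12 neutrophil markers summed to 4.14 to 9.52 FPKM in WT IR and 75.6 to 134 FPKM in Tet2-/- IR, with at most 2 of the 12 at 0 in a library, and 3 of the 4 that passed the filter in every comparison were called higher. Their defining genes S100a8 and S100a9 had 2.46 ± 0.773 and 3.36 ± 1.56 FPKM in WT IR and 40.4 ± 11.3 and 52.4 ± 17.0 FPKM in Tet2-/- IR (SD, n = 3). The 13 macrophage markers summed to 37.3 to 80.6 and 69.5 to 256 FPKM, and 2 were called higher. The 10 proximal tubule markers summed to 2741 to 3656 FPKM in WT IR and 947 to 1664 FPKM in Tet2-/- IR, and 4 were called lower. The podocyte markers summed to 2.10 to 20.4 and 33.9 to 70.0 FPKM. The 2 tubular injury markers summed to 288 to 1035 and 2340 to 2716 FPKM. The neutrophil, proximal tubule, podocyte, adipocyte and injury sums did not overlap between the groups, as for Ripk3 and Mlkl. Within Tet2-/- IR the neutrophil sum was lowest in replicate 3, the library in which Mlkl was highest. The part of these cell types in the Ripk3 and Mlkl differences was not tested.

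Whether the response to IR itself differed between genotypes was tested with the interaction term over all 12 libraries. In the interaction, called means past an adjusted p of 0.05 with no limit of fold. Ripk3 was called, with a difference of 1.44 on the log2 scale (SE 0.35, adjusted p = 0.0312 from edgeR), that is, a 2.71-fold larger change after IR in Tet2-/- than in WT. It was the only one of 10 members, where 3.79% of 16741 genes were called in that direction. With replicate numbers as a block within each genotype the adjusted p of Ripk3 was 0.0514, and no member was called. With 1 library left out, Ripk3 was called in 4 of 12 fits, those without WT baseline replicate 3, WT IR replicate 2, Tet2-/- IR replicate 1 or Tet2-/- IR replicate 3, and otherwise had adjusted p-values of 0.0503 to 0.0862. Its log2 difference stayed between 1.25 and 1.60.

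Mlkl had the larger difference, 2.17 (SE 0.67), which did not pass in edgeR (adjusted p = 0.0651) and did in DESeq2 (adjusted p = 0.0137), in limma on log2(FPKM + 1) (adjusted p = 0.0165) and without TMM scaling (adjusted p = 0.0424). Leaving out WT IR replicate 3 gave 2.83 with an adjusted p of 0.0237. Casp8, with log2 fold changes of 0.63 in WT and 0.69 in Tet2-/-, had a difference of 0.10 (SE 0.23), and Ripk1 of 0.39 (SE 0.21, adjusted p = 0.242). Zbp1, Nlrp3, Casp1, Gsdmd, Casp4 and Pycard had differences of 0.91, 1.30, 0.79, 0.64, 0.41 and 0.14, none past the test, with standard errors of 0.59 to 1.11.

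**Figure D3:**
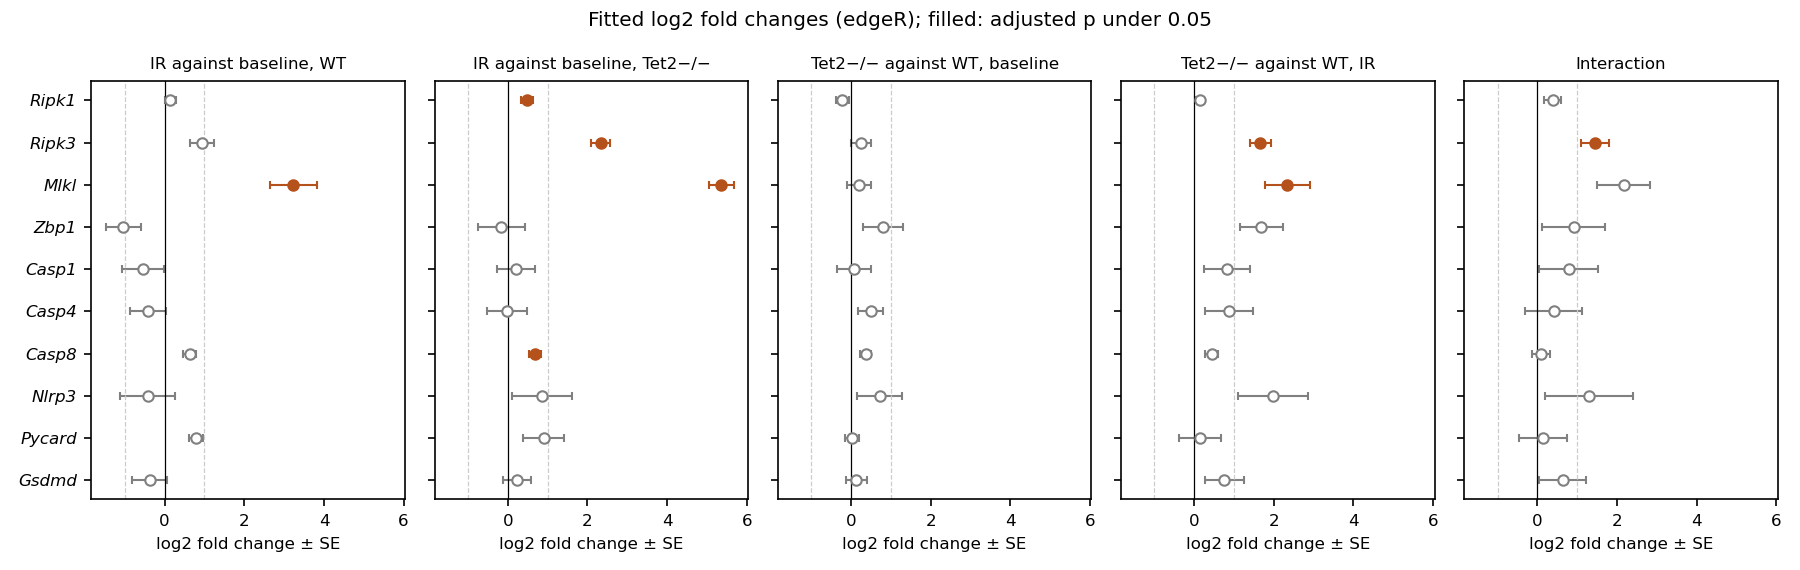
Log2 fold change (horizontal axis, points) with its standard error (bars) for each member (vertical axis) in the 4 pairwise comparisons and the interaction, filled where the adjusted p from edgeR was under 0.05. Mlkl is filled in both IR comparisons (3.23 and 5.36) and after IR between genotypes (2.34), and Ripk3 is filled after IR in Tet2-/- (2.33), after IR between genotypes (1.66) and in the interaction (1.44).

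**Figure D4:**
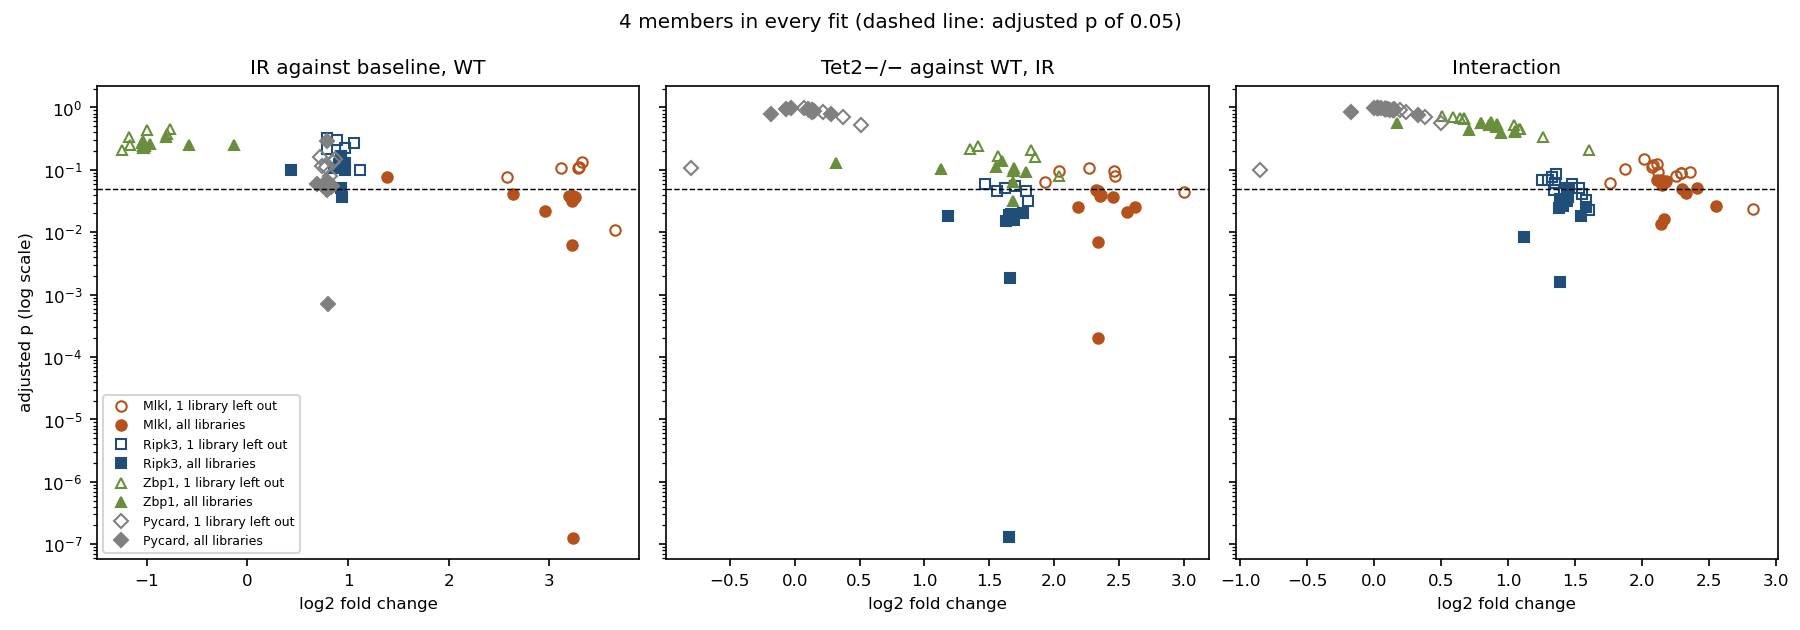
Log2 fold change (horizontal axis) and adjusted p (vertical axis, log scale) of Mlkl, Ripk3, Zbp1 and Pycard in every fit with all libraries (filled) and with 1 library left out (open). In the middle panel, Mlkl and Ripk3 lie between 1.18 and 3.0 in every fit, on both sides of the dashed line at an adjusted p of 0.05.

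Partners of the necroptosis machinery outside the 10 members were followed with a list of 32 genes, all tested. In Tet2-/- kidneys 7 of 32 were called higher after IR and none lower, against 12.7% of all genes called higher. By the adjusted p alone 12 were higher and 1 lower, against 22.9% and 20.3% of all genes. Tlr4, the lipopolysaccharide receptor, rose from 0.274 to 1.10 FPKM (log2 fold change 1.75, standard error 0.28, adjusted p = 0.00244). Tnfrsf1a, the main receptor of tumor necrosis factor, rose from 17.4 to 54.0 FPKM (log2 fold change 1.38, standard error 0.12), and Birc3, a ubiquitin ligase that restrains RIPK1, rose from 1.58 to 6.14 FPKM (log2 fold change 1.69, standard error 0.20). Tnfaip3, which encodes the ubiquitin editor A20, rose from 0.741 to 2.42 FPKM (log2 fold change 1.44, standard error 0.27). The 7 genes called included both activators and inhibitors of the pathway. In WT kidneys edgeR called none of the 32 (10 had an unadjusted p under 0.05, and DESeq2 called none), and between genotypes after IR it called none as well (8 with an unadjusted p under 0.05, 1 called by DESeq2). In the interaction Tlr4 was called (2.67, standard error 0.69, adjusted p = 0.037), and 3 of 32 were called with the block within genotype. For this list and those below, the shares of all genes called by the block and by DESeq2 are not given. Counts from those fits therefore cannot be set against a background.

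Of 34 inflammasome sensors, partners and products, 7 were called higher and 2 lower of 33 tested in Tet2-/- kidneys after IR. Mefv and Naip1, 2 of the 7, did not pass the filter on low counts at baseline and entered through their higher values after IR. Over the 31 genes tested in every comparison 5 were called higher (16.1%) and 2 lower (6.45%), against 11.4% and 11.5% of all genes so tested. By the adjusted p alone the counts of the 31 were the same, against 22.1% and 20.6%, so the share that was higher lay above the share of all genes by one rule and below it by the other. Nlrp6, an inflammasome sensor of epithelia, fell from 56.4 to 4.46 FPKM (log2 fold change -3.91, standard error 0.34, adjusted p = 0.000249). Il1rn, which encodes the interleukin-1 receptor antagonist, rose from 0.0250 to 1.81 FPKM (log2 fold change 5.83, standard error 0.73), and Il1b, the cytokine that caspase-1 matures, from 0.432 to 2.99 FPKM (log2 fold change 2.51, standard error 0.57). Tmem173, which encodes the DNA signalling adaptor STING, rose from 0.962 to 8.14 FPKM (log2 fold change 2.78, standard error 0.49). In WT kidneys Gbp3, an interferon-inducible GTPase, was the only gene called of 32 tested, where 1.46% of all genes were called higher. It rose from 2.40 to 6.20 FPKM (log2 fold change 1.31, adjusted p = 0.0177 from edgeR). With the replicate block 3 were called higher and 2 lower, and the share of all genes by that fit is not given here.

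After IR, 2 of these 34 genes were called higher in Tet2-/- than in WT kidneys and 1 lower, against 2.3% and 3.85% of all genes. Il1b was higher (0.445 against 2.99 FPKM, log2 fold change 2.59, standard error 0.43, adjusted p = 0.0194), as was Serpinb1a, an inhibitor of neutrophil proteases and inflammatory caspases (7.27 against 18.9 FPKM, log2 fold change 1.26, adjusted p = 0.015). Nlrp6 was lower (27.0 against 4.46 FPKM, log2 fold change -2.69, standard error 0.49, adjusted p = 0.0234). In the interaction, where 5.39% of all genes were called in the negative direction and 3.79% in the positive, Nlrp6 (-2.90, adjusted p = 0.0111) and Serpinb1a (1.5, adjusted p = 0.0158) were called, and with the block within genotype 6 genes were called higher and 3 lower. DESeq2 called 5 higher and 2 lower between genotypes after IR. The shares above are those of the main edgeR fits, so the counts from the block and from DESeq2 have no background beside them.

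Of 21 other gasdermins and genes of membrane rupture and repair, 6 were called higher and 1 lower of 17 tested in Tet2-/- kidneys after IR. Gsdma, 1 of the 6, did not pass the filter at baseline, and over the 16 genes tested in every comparison 5 were called higher (31.2%) and 1 lower, against 11.4% and 11.5% of all genes so tested. By the adjusted p alone 7 of the 16 were higher and 1 lower, against 22.1% and 20.6%. The ones that rose most among those with at least 1 FPKM were repair genes. Anxa2, a membrane-sealing annexin, rose from 32.8 to 372 FPKM (log2 fold change 3.24, standard error 0.22, adjusted p = 0.000103) and Anxa1 from 4.45 to 17.5 FPKM (log2 fold change 1.70, standard error 0.34). Chmp4c, a subunit of the ESCRT-III complex that sheds damaged membrane, rose from 1.39 to 6.46 FPKM (log2 fold change 1.97, standard error 0.21). Dfnb59, a gasdermin relative known as pejvakin, fell from 1.30 to 0.0460 FPKM (log2 fold change -5.09, standard error 0.40), and no more than 8 counts remained in any Tet2-/- IR library. In WT kidneys edgeR called none of 16 tested (5 had an unadjusted p under 0.05), the replicate block 2 higher, and DESeq2 2 higher. In the interaction Dfnb59 (-3.94, adjusted p = 0.0115) and Chmp4b, another ESCRT-III subunit (0.79, adjusted p = 0.0236), were called beside Gsdma. Of all genes, 3.79% were called there in the positive direction and 5.39% in the negative. With the block within genotype 5 of the list were called higher and 1 lower. The shares of all genes by the block and by DESeq2 are not given here. Between genotypes after IR Gsdma, another gasdermin, was called higher and Dfnb59 lower, the first having passed the filter only with the Tet2-/- IR libraries, both named after their values were seen and both with a mean under 1 FPKM in either group.

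Of 18 apoptosis caspases and Bcl-2 family genes, 5 were called higher and none lower in Tet2-/- kidneys after IR, against 12.7% and 11.6% of all genes, and 9 were higher by the adjusted p alone, against 22.9% of all genes. Bak1, a pore former of the mitochondrial membrane, rose from 6.41 to 25.4 FPKM (log2 fold change 1.73, standard error 0.22, adjusted p = 0.000844), Apaf1, the scaffold of the apoptosome, from 0.495 to 1.43 FPKM (log2 fold change 1.27) and Pmaip1, which encodes NOXA, from 2.64 to 6.74 FPKM (log2 fold change 1.09). Bcl2l1, which encodes the survival factor BCL-XL among its products, rose from 39.3 to 101 FPKM (log2 fold change 1.12). Bak1 was also higher in Tet2-/- than in WT IR (log2 fold change 1.04, standard error 0.23, adjusted p = 0.0376). In WT kidneys edgeR called none of 18 (4 had an unadjusted p under 0.05, and DESeq2 called none). In the interaction edgeR also called none (7 with an unadjusted p under 0.05), while the block within genotype and DESeq2 each called 3.

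Of 20 interferon response genes, 2 were called higher and 1 lower in Tet2-/- kidneys after IR, shares below the 12.7% and 11.6% of all genes. By the adjusted p alone 7 were higher (35%) and 1 lower (5%), against 22.9% and 20.3%, so the share that was higher lay above that of all genes by this rule. Eif2ak2, which encodes the kinase PKR, rose from 2.07 to 6.28 FPKM (log2 fold change 1.34, standard error 0.15), Ifih1, an RNA sensor, from 0.539 to 1.55 FPKM (log2 fold change 1.26, standard error 0.28), and Rsad2, an antiviral enzyme, fell from 3.24 to 1.66 FPKM (log2 fold change -1.23, standard error 0.26). In WT kidneys edgeR called none of 20 (7 had an unadjusted p under 0.05), and the block and DESeq2 each called 1 lower. Between genotypes after IR edgeR called none (7 with an unadjusted p under 0.05) and DESeq2 2 higher, and in the interaction Ifit2, an interferon-induced RNA-binding protein, was called (1.29, adjusted p = 0.0257). At baseline none of 117 tested genes of the 5 lists was called by edgeR, with 5 at an unadjusted p under 0.05 and 1 called lower by DESeq2.

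**Figure D5:**
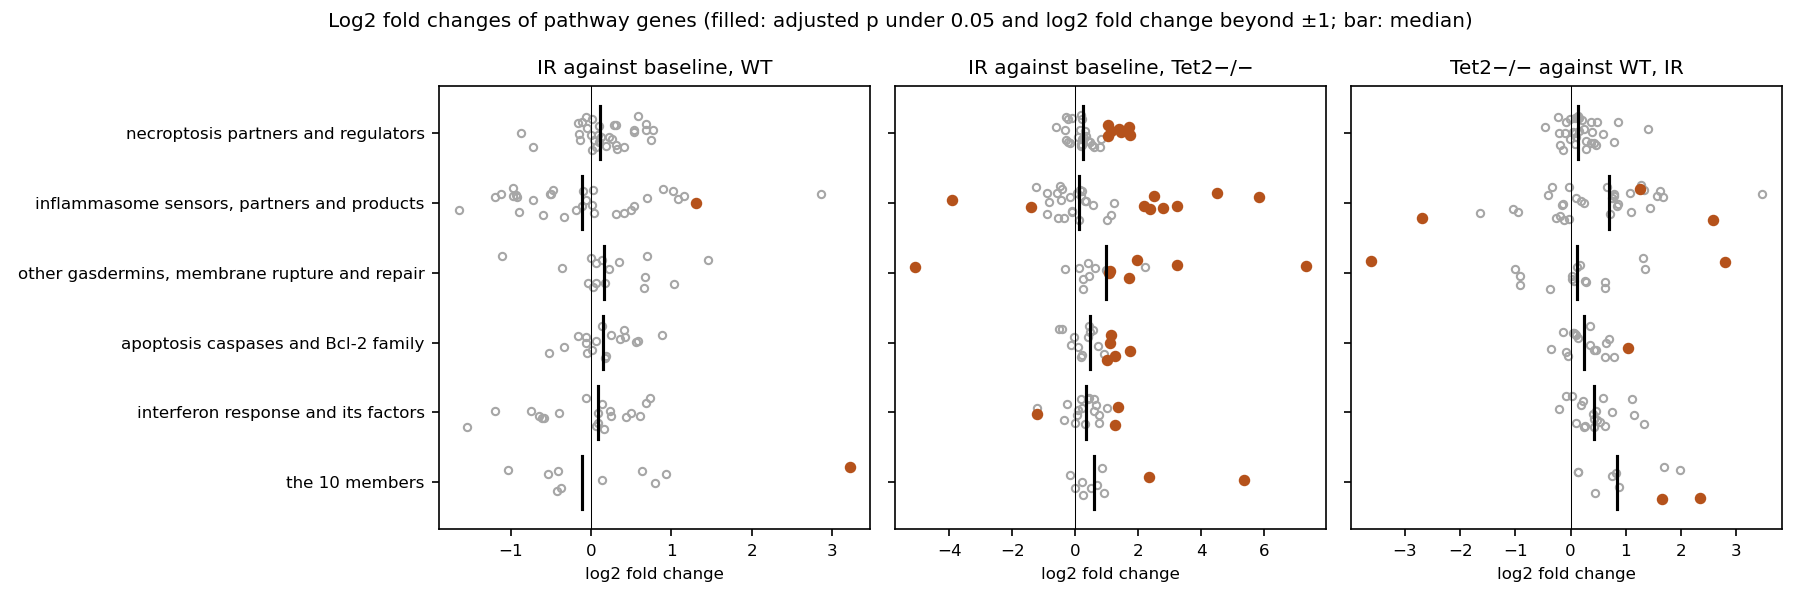
Log2 fold changes (horizontal axis, 1 point per gene) of the 5 pathway lists and the 10 members (rows) after IR in WT, after IR in Tet2-/- and between genotypes after IR, filled where called, with a bar at the median. In the middle panel 27 genes of the lists are called higher and 4 lower, against 12.7% and 11.6% of all genes. Mefv, Naip1 and Gsdma are among those called higher and passed the filter only through their values after IR. In the left panel 1 gene of the lists is called, higher, against 1.46% of all genes called higher.

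Genes whose profile over the 12 libraries was most like that of a member were sought among 12933 genes, by the root mean square difference of standardized log2(FPKM + 1), given as a description in SD units. The nearest to Ripk3 were Itpkc (0.084), Ptprn (0.132) and Clic1 (0.145), and Ttll7 (0.139) was among the nearest to Mlkl. The nearest to Casp8 were Eif4a1 (0.185), Clcf1 and Spint1, and the nearest to Ripk1 were Eif3a (0.166), Prkar2a and Lsm14a.

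Among the nearest profiles of the pyroptosis genes, only Ccr2 was on the leukocyte marker lists used here. Those of Nlrp3 were Ccr2 (0.167), a monocyte chemokine receptor, Ms4a6b and Fcer1g, the common chain of Fc receptors. The nearest to Casp1 was another member, Gsdmd (0.373), followed by Nrros and Il2rg, and the nearest to Gsdmd were Nrros (0.354), Inpp5d and Mmp23. The nearest to Casp4 were Pld4 (0.412), Csf2ra and Trim30a, and those to Zbp1 were Ccl5 (0.468), H2-Q9 and H2-Q7. Pycard was nearest to Ckmt1 (0.321), and BC055324 was also among its nearest. These distances were larger than those of Ripk3 and Mlkl, and the libraries share depth and cell makeup across all genes.

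The genes that flank the members were looked up after the values of the members were known. Mlkl lies 11.6 kb from Rfwd3 and 6.9 kb from Fa2h, with log2 fold changes of 0.01 and 0.25 after IR in Tet2-/- kidneys, neither past the test. Ripk3 lies 1.0 kb from Adcy4 (0.03) and 35.9 kb from Nfatc4 (-0.65), neither past the test. Bphl, 2.5 kb from Ripk1, fell (log2 fold change -2.83, adjusted p = 4.78e-05) while Ripk1 rose. Casp1 and Casp4 are 1.6 kb apart, and Casp12, 8.7 kb from Casp4, had a log2 fold change of 0.18 (adjusted p = 0.787).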

How the data were processed

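RNA-seq of whole mouse kidney was measured in 12 libraries, 3 per group, grouped by the labels. The study's text gives 3 mice per genotype at baseline and after IR, and the labels do not tie libraries to animals. The authors aligned reads to mm9 with STAR and counted RefSeq transcripts with HOMER, and used edgeR for their own tests. Versions are not given in the sources used here. The deposited counts are in steps of 0.5 (38.7% of values not whole), so they were treated as estimated counts and rounded. The authors also deposited FPKM per transcript, used here for levels. The kit and its strandedness are not given in the sources used here, but no other annotated gene overlaps a member.

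Members and gene lists were chosen with earlier results of these data known. From each list and comparison up to 4 called genes are named, those farthest from 0 whose mean reached 1 FPKM in either group; for each member, the 3 nearest profiles are named, except some that are not reported here. The transcript with the highest total was kept per symbol. edgeR 4.0.16 (R 4.3.3) with TMM scaling, filterByExpr, glmQLFit and glmQLFTest was fitted on all genes of each pair of groups, and on 12 libraries for the interaction, with Benjamini-Hochberg adjustment over all genes. Fold changes are on TMM-scaled counts and can differ in sign from FPKM ratios. Alternatives were DESeq2 1.42.0, limma 3.58.1 on log2(FPKM + 1) and log2(FPKM + 0.1), other scalings and filters, summed transcripts, 1 fit for all groups, a replicate block and each library left out. With 3 against 3 libraries an exact permutation test cannot go below 0.10, so none was run. As a check of the code, the fits were run on simulated counts with known changes, and no result here rests on that. Same-numbered libraries deviated together in the IR comparisons (r of 0.38, 0.363 and 0.358 in WT and of 0.135, 0.359 and 0.222 in Tet2-/-), a pairing that comes from the data and not from the labels. Total counts of 51007366 to 107969888 set the precision, and counting error is largest for members under 50 counts in a library.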

Additional observations from a re-analysis of the deposited data

Results flagged for a closer look

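The difference of the IR effect between genotypes stood out for Ripk3, by the interaction term over all 12 libraries. Its change after IR was larger in Tet2-/- than in WT kidneys by 1.44 on the log2 scale (SE 0.35, adjusted p = 0.0312 from edgeR), with 3 of 3 Tet2-/- IR libraries above all 3 WT IR libraries. With a block within genotype the adjusted p was 0.0514. The neutrophil marker sum (75.6 to 134 against 4.14 to 9.52 FPKM) and the proximal tubule marker sum (947 to 1664 against 2741 to 3656 FPKM) moved with it, and their part in the difference was not tested.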

How the results depend on the processing

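Of 882 values recomputed for the members, 807 kept their direction and their side of the threshold, 23 lost a call, 9 gained one and 43 changed sign, none of them a called value, and the cause was not tested. The calls of Mlkl and Ripk3 after IR in Tet2-/- held under every alternative run. The number of members called after IR in WT was 0 with limma on log2(FPKM + 1), against 1, and 0 to 1 with a library left out. In Tet2-/- kidneys it was 4 with no limit of fold, against 2. Between genotypes after IR it was 0 to 1 with a library left out and 3 with DESeq2, which added Zbp1, against 2. In the interaction it was 2, against 1, with DESeq2, without TMM scaling, with limma at either pseudocount and with the replicate number as a block over all groups, 0 with the block within genotype, an alternative chosen after seeing the data, and 0 to 1 with a library left out. The block changed no other count of members called. Between genotypes same-numbered libraries had r from -0.186 to 0.071 at baseline and of 0.003, 0.23 and 0.32 after IR. The labels do not say what a replicate number marks. With the block between genotypes, 0 members were called at baseline and 2 after IR.

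Sign changes were confined to Zbp1, Casp1, Casp4, Casp8, Nlrp3, Pycard, Gsdmd and, at baseline, Mlkl. With a library left out, log2 fold changes ranged from -1.36 to 0.09 for Nlrp3 after IR in WT. After IR in Tet2-/- they ranged from -0.49 to 0.58 for Zbp1, -0.20 to 0.53 for Casp1, -0.73 to 0.24 for Casp4, -0.20 to 1.45 for Nlrp3, -0.03 to 1.24 for Pycard and -0.17 to 0.40 for Gsdmd. Between genotypes at baseline they ranged from -0.02 to 0.33 for Mlkl, -0.25 to 0.40 for Casp1, -0.08 to 0.13 for Pycard and -0.02 to 0.34 for Gsdmd, and after IR from -0.80 to 0.51 for Pycard. In the interaction they ranged from -0.36 to 1.0 for Casp4, -0.05 to 0.21 for Casp8 and -0.85 to 0.50 for Pycard. Without TMM scaling, Zbp1 and Casp4 after IR in Tet2-/- were 0.08 and 0.23, and Casp1 and Pycard at baseline -0.00053 and -0.05. With limma on log2(FPKM + 1) and log2(FPKM + 0.1), Zbp1 after IR in Tet2-/- was 0.04 and 0.13, Casp4 0.08 and 0.09, Casp1 at baseline -0.01 and -0.04, Pycard at baseline -0.06 and -0.07 and Pycard between genotypes after IR -0.03 and -0.07. In 1 fit of all 12 libraries Casp4 after IR in Tet2-/- was 0.0042 and Pycard at baseline -0.01. With a replicate block Pycard was -0.18 between genotypes after IR and -0.17 in the interaction within genotype. Counting error is largest where counts are fewest, as for Nlrp3, and its part in the spread between libraries was not tested.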
